A study of Arabidopsis thaliana with 4 samples.

Results

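The 10 genes described here encode WRKY transcription factors of Arabidopsis thaliana that are known for roles in plant defence: WRKY11 (AT4G31550), WRKY18 (AT4G31800), WRKY25 (AT2G30250), WRKY33 (AT2G38470), WRKY40 (AT1G80840), WRKY46 (AT2G46400), WRKY53 (AT4G23810), WRKY54 (AT2G40750), WRKY60 (AT2G25000) and WRKY70 (AT3G56400). They were taken from the array by locus, and the 10 loci were carried by 15 probes. All 10 passed the filter on dim probes and stand among 22438 features tested. The genes were selected on their log2 ratios of the truncated and the full-length line to wild type, so the ratios below are a description, and no call on these 10 genes is independent evidence.

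RNA of whole plants was compared on 4 Agilent 2-colour arrays, 2 for each transgenic line. The truncated line carried a shortened form of VuDREB2A, a DREB2-type transcription factor from cowpea, under the 35S promoter, which drives expression in most plant tissues. The full-length line carried the whole factor under the same promoter. Wild type was Col-0, the background of both lines. Plants were 21 days old and untreated, and had grown on vertical agar plates with 1% sucrose at 25°C and 12 h of light a day. The labels name 1 line for each construct, so the difference between constructs and other differences between these lines cannot be told apart. Dyes were swapped between arrays: line RNA was labelled with Cy3 in replicate 1 and with Cy5 in replicate 2 of both lines. Only 2 wild type replicates are counted in the design text, and the same wild type RNA may therefore have served both lines.

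WRKY factors are plant zinc-finger proteins that bind the W-box, an element found in many defence gene promoters. Many WRKY genes are themselves transcribed within minutes of pathogen recognition, downstream of membrane receptors and mitogen-activated protein kinases. The family is divided by domain structure: WRKY25 and WRKY33 belong to group I, WRKY18, WRKY40 and WRKY60 to group IIa, WRKY11 to group IId, and WRKY46, WRKY53, WRKY54 and WRKY70 to group III. Members of the list include activators and repressors of defence, so the genes are not known to act in 1 direction.

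All 10 genes were well above background in both channels of all 4 arrays. Of the 43603 probes on the array, 65.6% to 72.5% were well above background in a channel, and no gene spot was saturated. The number of arrays limits the precision. Leaf markers and root markers (6 of 6 and 9 of 9) were well above background on every array. Of the 4 floral genes, PI was well above background in both channels of all 4 arrays. AG was so in wild type on 1 array, and AP1 and AP3 were on none. The transcripts were measured in bulk plants, so fewer cells of a type and less RNA per cell cannot be told apart.

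Ratios are log2 of line over wild type, and errors are SDs over the pair of arrays for that line (n = 2). A gene is called where limma's adjusted p (Benjamini-Hochberg over all 22438 features) is under 0.05. Normalised signals are background-corrected intensities on a linear scale, brought to a common distribution over the arrays. They compare 1 gene between samples and not one gene with another. Wild type gave 1 reading on each of the 4 arrays, and these readings may come from only 2 RNA samples.

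In the truncated line WRKY18 and WRKY60 were called higher and WRKY70 lower, with log2 ratios of 0.42, 0.40 and -0.33. In the full-length line WRKY60 was called higher, and WRKY40, WRKY33 and WRKY53 lower, with log2 ratios of 1.13, -1.20, -0.97 and -0.35. The truncated line thus had 3 of 10 genes called, where 13.2% of all features were called. The full-length line had 4 of 10, where 15.5% of all features were called. Median log2 ratios of the 10 genes were -0.12 in the truncated and -0.14 in the full-length line, and those of all features were 0.00 and 0.01. The direction was the same on both arrays for 10 of 10 genes in the truncated line and for 9 of 10 in the full-length line. With median centring of each array in place of loess, no gene of the 10 was called in either line (lowest adjusted p = 0.167), while no mean changed sign.

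**Figure D1:**
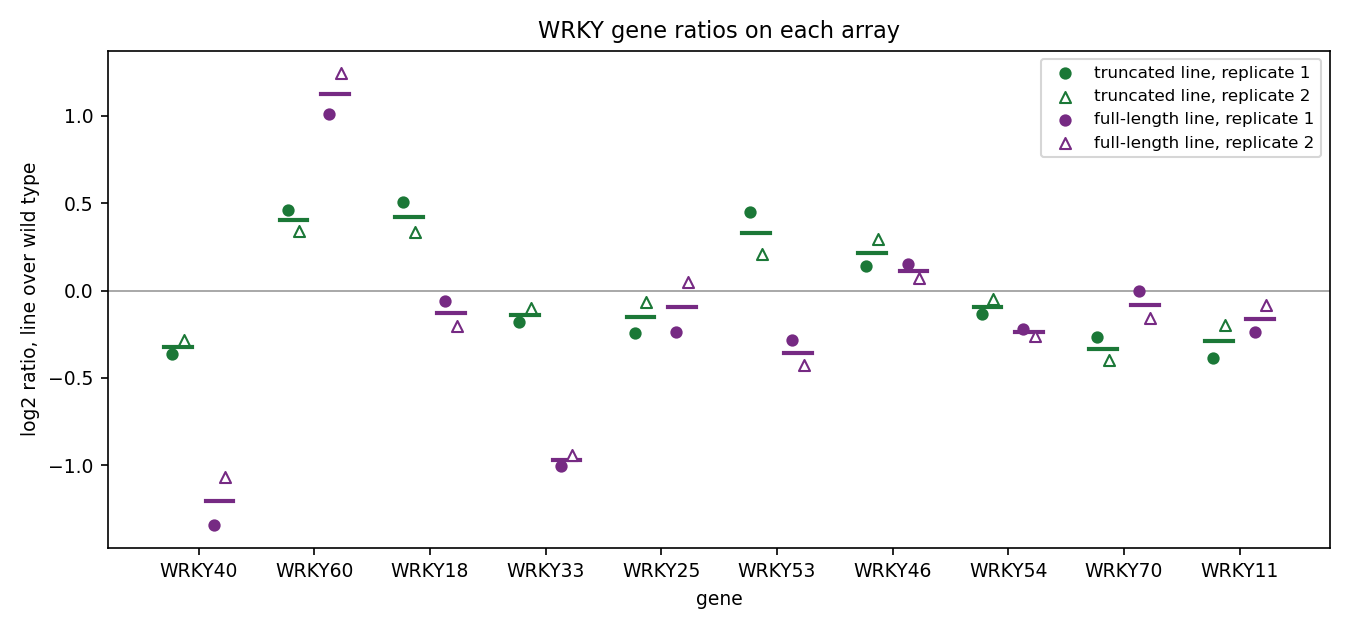
Log2 ratio of line over wild type for each of the 10 WRKY genes on each array. Circles are replicate 1 and triangles replicate 2, bars are means over 2 arrays, and the truncated line (green) stands left of the full-length line (purple). WRKY40 and WRKY33 lie lowest and WRKY60 highest in the full-length line, at means of -1.20, -0.97 and 1.13, while all truncated line values lie between -0.40 and 0.51.

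The group IIa genes WRKY18, WRKY40 and WRKY60 encode related proteins that bind each other and are known as partly redundant repressors of basal defence and regulators of abscisic acid responses. WRKY40 had log2 ratios of -0.36 and -0.28 on the arrays of the truncated line and of -1.34 and -1.06 on those of the full-length line. The normalised signal of WRKY40 was 468 and 465 in the truncated line and 245 and 289 in the full-length line, against 601, 565, 621 and 604 in wild type. The line samples lay below all 4 wild type readings, and the full-length line lay below the truncated line without overlap. WRKY40 was 2.30-fold lower in the full-length line (-1.20 ± 0.20, adjusted p = 0.0037) and had -0.32 ± 0.06 in the truncated line (adjusted p = 0.0684). Its size in the full-length line ranked 62 among all features. With outlier-marked spots kept, the full-length value was -0.76 (adjusted p = 0.0338). No probe of the 10 genes had an outlier-marked spot. For these genes the setting changed which other spots entered background correction and normalisation.

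WRKY60, whose promoter is known to be bound by WRKY18 and WRKY40 in Arabidopsis, had the opposite sign in both lines. Its log2 ratios were 0.46 and 0.34 in the truncated line and 1.01 and 1.24 in the full-length line. Its normalised signal was 1116 and 1101 in the truncated line and 1590 and 2061 in the full-length line, against 810, 868, 790 and 871 in wild type. Each line sample exceeded each wild type reading, and the full-length line exceeded the truncated one on both arrays. The mean was 1.32-fold higher in the truncated line (0.40 ± 0.08, adjusted p = 0.0367) and 2.18-fold higher in the full-length line (1.13 ± 0.16, adjusted p = 0.00373). The truncated call held in 6 of 12 alternatives. It was lost without truncated replicate 1 (0.34, adjusted p = 0.149), with outlier-marked spots kept (adjusted p = 0.0956), with the scanner software's log ratios and the deposited table (both 0.0596), with no filter on dim probes (0.107) and with median centring.

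WRKY18 had log2 ratios of 0.51 and 0.34 in the truncated line and of -0.06 and -0.20 in the full-length line. Its normalised signal was 1741 and 1678 in the truncated line and 1237 and 1130 in the full-length line, against 1224, 1329, 1287 and 1299 in wild type. The truncated line lay above all wild type readings, and the full-length line overlapped their range. WRKY18 was 1.34-fold higher in the truncated line (0.42 ± 0.12, adjusted p = 0.0278), a call lost without truncated replicate 1 (0.34, adjusted p = 0.14), with no filter on dim probes (0.0873) and with median centring, and had -0.13 ± 0.10 in the full-length line (adjusted p = 0.288). Of the group IIa genes, WRKY60 and WRKY18 were called higher in the truncated line, and WRKY60 was called higher and WRKY40 lower in the full-length line.

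**Figure D2:**
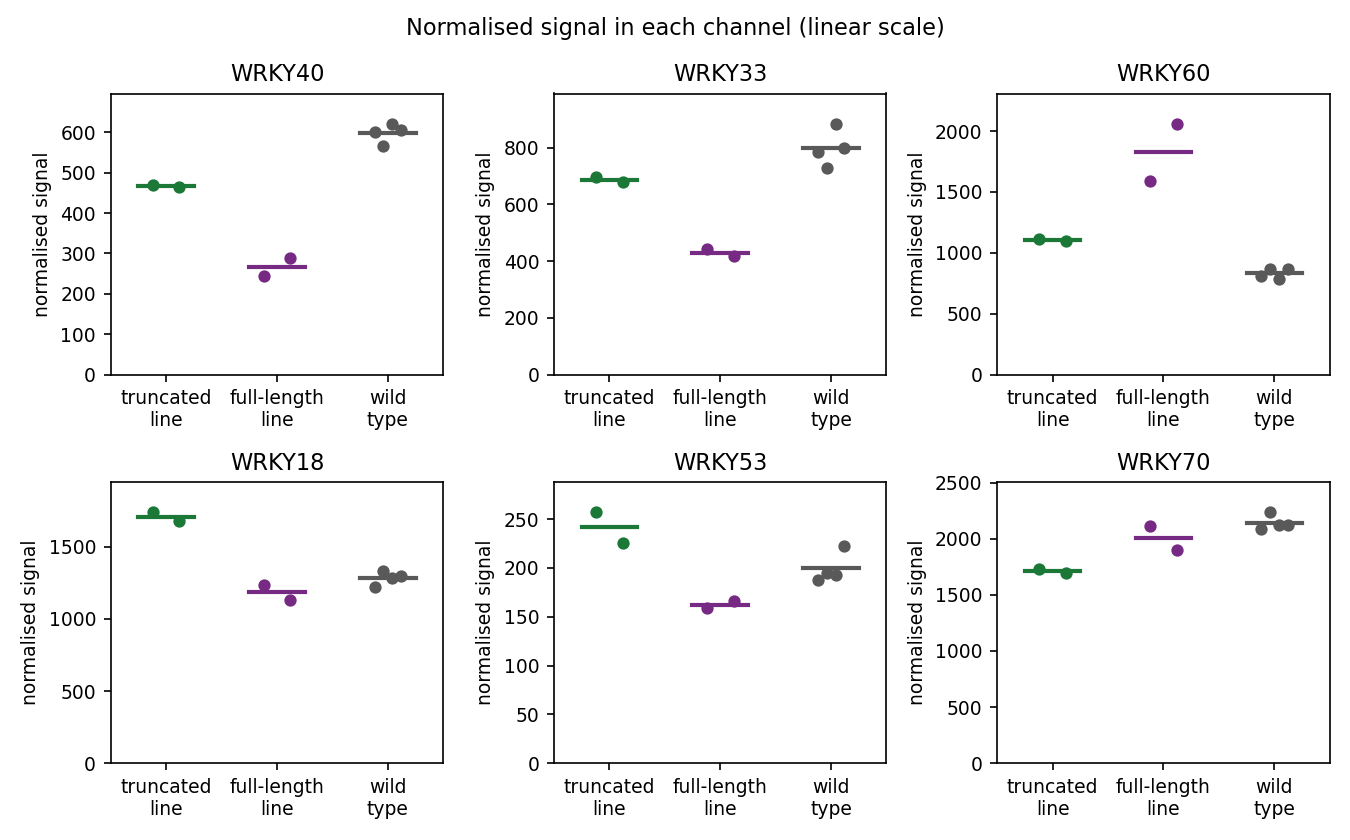
Normalised signal (linear scale, from 0) of 6 WRKY genes in the truncated line (2 samples), the full-length line (2 samples) and wild type (4 readings). The wild type readings may come from only 2 RNA samples. Points are array readings and bars are means. WRKY40 and WRKY33 are lowest in the full-length line, WRKY60 is highest there, and WRKY18 is highest in the truncated line.

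The group I factor WRKY33 is phosphorylated by the kinases MPK3 and MPK6 and is known to activate PAD3, the gene for the last enzyme of camalexin synthesis. WRKY33 had log2 ratios of -0.18 and -0.10 in the truncated line and of -1.002 and -0.94 in the full-length line. Its normalised signal was 695 and 679 in the truncated line and 442 and 417 in the full-length line, against 786, 728, 885 and 800 in wild type. The full-length samples were well below all others, and the truncated samples lay just below the lowest wild type reading. WRKY33 was 1.96-fold lower in the full-length line (-0.97 ± 0.05, adjusted p = 0.003) and had -0.14 ± 0.05 in the truncated line (adjusted p = 0.188).

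WRKY25, another group I gene with known roles in heat tolerance and salicylic acid defence, had -0.24 and -0.06 in the truncated line and -0.24 and 0.05 in the full-length line. Its means were -0.15 ± 0.13 and -0.09 ± 0.20 (adjusted p = 0.325 and 0.537), and its sign in the full-length line depended on the array. WRKY25 was the gene of the 10 whose arrays of the full-length line disagreed in sign.

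Group III holds WRKY53, a known promoter of leaf senescence, and WRKY54 and WRKY70, close homologues that act against senescence and downstream of salicylic acid. WRKY53 had log2 ratios of 0.45 and 0.21 in the truncated line and of -0.29 and -0.42 in the full-length line. Its normalised signal was 257 and 226 in the truncated line and 159 and 166 in the full-length line, against 188, 195, 193 and 223 in wild type. The lines thus lay on opposite sides of wild type. WRKY53 was 1.28-fold lower in the full-length line (-0.35 ± 0.10, adjusted p = 0.0466) and had 0.33 ± 0.17 in the truncated line (adjusted p = 0.0609). Leaving out full-length replicate 1 or 2 ended the full-length call of WRKY53 (-0.42 and -0.29, adjusted p = 0.0664 and 0.212). The other WRKY53 probe gave 0.14 in the truncated and -0.00 in the full-length line, so the full-length decrease was seen with 1 of 2 probes. With both probes averaged the full-length value was -0.18 (adjusted p = 0.0753), with outlier-marked spots kept -0.23 (adjusted p = 0.291), and with the scanner software's log ratios -0.61 (adjusted p = 0.0489). With no filter on dim probes the adjusted p was 0.127.

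WRKY70 had -0.27 and -0.40 in the truncated line and -0.00 and -0.16 in the full-length line. Its normalised signal was 1732 and 1698 in the truncated line and 2116 and 1903 in the full-length line, against 2083, 2237, 2122 and 2119 in wild type. Both truncated samples lay below all wild type readings, and the full-length samples overlapped the wild type range. WRKY70 was 1.26-fold lower there (-0.33 ± 0.09, adjusted p = 0.0424) and had -0.08 ± 0.11 in the full-length line (adjusted p = 0.483). The truncated call was lost without either truncated replicate (-0.40 and -0.27, adjusted p = 0.0834 and 0.229), with the scanner software's log ratios (adjusted p = 0.0801), with an offset of 16 (0.0593), with no filter on dim probes (0.124) and with median centring.

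WRKY54, the homologue of WRKY70, had -0.14 and -0.05 in the truncated line and -0.22 and -0.26 in the full-length line. Its means were -0.09 ± 0.06 and -0.24 ± 0.03, neither past the threshold (adjusted p = 0.351 and 0.055). WRKY54 was dim, at a normalised signal of 140 to 167, where the offset of 50 added to the background-corrected intensities draws ratios towards 0. With an offset of 16 the full-length value was -0.31 (adjusted p = 0.0458), and with the scanner software's log ratios -0.48 (adjusted p = 0.0306). WRKY46, which acts with WRKY53 and WRKY70 in basal resistance, had 0.14 and 0.29 in the truncated line and 0.15 and 0.07 in the full-length line, with means of 0.22 ± 0.11 and 0.11 ± 0.06 (adjusted p = 0.0992 and 0.304).

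The group IId gene WRKY11, a known negative regulator of basal resistance, had -0.39 and -0.20 in the truncated line and -0.24 and -0.08 in the full-length line. All 4 values were below 0, but neither mean passed (-0.29 ± 0.13 and -0.16 ± 0.11, adjusted p = 0.0694 and 0.218).

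Of the 10 genes, 5 had a second probe, and these bear on how well the ratios repeat within an array. The second WRKY40 probe gave -0.34 in the truncated and -1.17 in the full-length line, close to the -0.32 and -1.20 of the probe used. For WRKY18 the second probe gave 0.23 and -0.21, for WRKY11 -0.30 and -0.31, and for WRKY46 0.17 and 0.12, each with the sign of the probe used. WRKY33 and WRKY60 were each read by 1 probe.

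Compared through their ratios to wild type, the lines differed at WRKY40, WRKY33 and WRKY60. Truncated minus full-length, the log2 difference was 0.88 (SE 0.12) for WRKY40, 0.83 (SE 0.08) for WRKY33 and -0.72 (SE 0.11) for WRKY60. The adjusted p-values were 0.0343, 0.0185 and 0.0434. These 3 of 10 genes compare with 3.12% of all features called in the same contrast, 0.972% higher and 2.15% lower in the truncated line. With 1 of the 4 arrays left out, the differences ran from 0.74 to 1.02 for WRKY40, 0.79 to 0.87 for WRKY33 and -0.84 to -0.61 for WRKY60. A line left with 1 array has no spread of its own, so these fits do not test the calls. With outlier-marked spots kept all 3 calls were lost, at differences of 0.44 for WRKY40, 0.59 for WRKY33 and -0.56 for WRKY60 (adjusted p = 0.327, 0.129 and 0.211). No spot of these 3 genes was itself marked. With median centring they were lost at 0.93, 0.92 and -0.60. With no filter on dim probes the differences were the same as reported and the adjusted p was 0.119, 0.078 and 0.145. The calls of WRKY40 and WRKY60 were also lost with the scanner software's log ratios or an offset of 16. WRKY53 (0.69, SE 0.12, adjusted p = 0.0526) and WRKY18 (0.55, SE 0.10, adjusted p = 0.0637) had differences of similar size that did not pass. With 1 array left out they ran from 0.56 to 0.81 for WRKY53 and from 0.47 to 0.64 for WRKY18. With both probes averaged the WRKY53 difference was 0.41 (adjusted p = 0.0546). The arrays of the lines did not overlap for 7 of the 10 genes, against 49.7% of all features. The overlapping genes were WRKY11, WRKY25 and WRKY46.

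**Figure D3:**
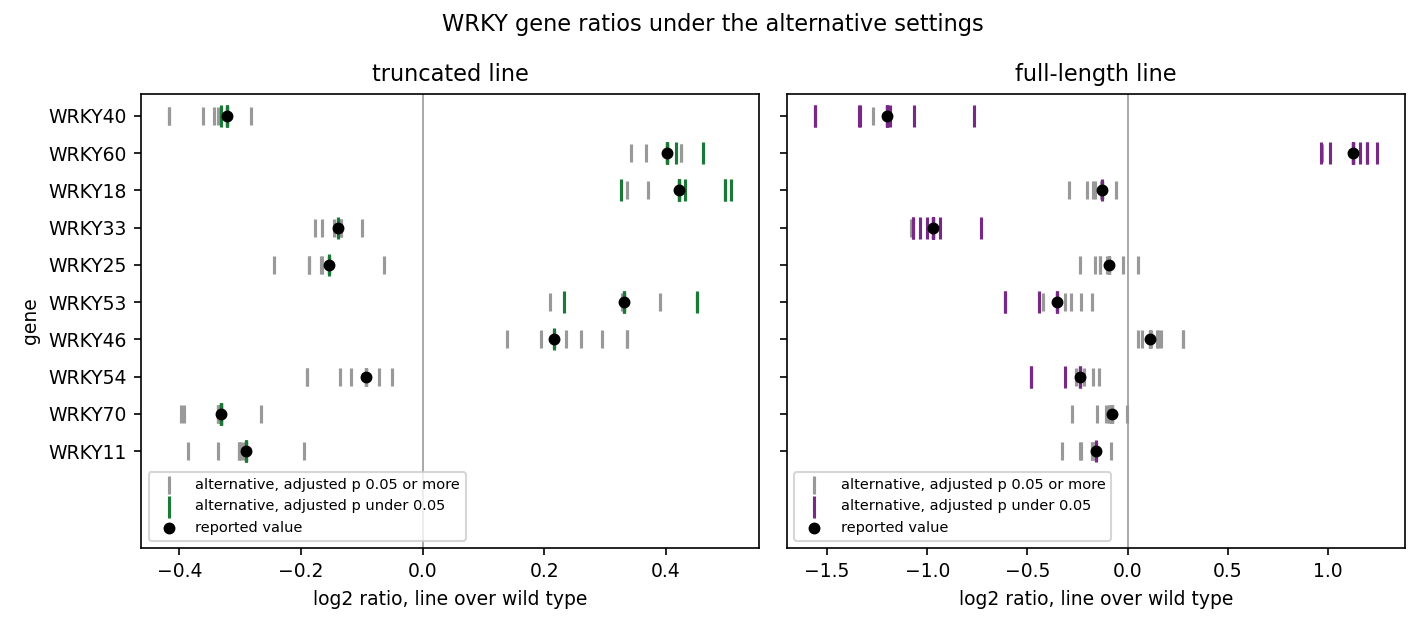
Log2 ratio of line over wild type for each WRKY gene as reported (black point) and under 12 alternative settings (ticks, coloured where the adjusted p was under 0.05); the horizontal ranges of the panels differ. In the full-length line WRKY40, WRKY33 and WRKY60 stay between -1.56 and -0.76, -1.08 and -0.73, and 0.96 and 1.24, and in the truncated line all 10 genes keep their sign. In the full-length line WRKY25 changes sign once, at 0.05.

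The rest of the family was read from 57 other loci with a WRKY symbol, of which 43 were tested and 14 were too dim. In the truncated line 0 of the 43 rose and 5 fell by limma, with a median log2 ratio of -0.08, and at an unadjusted p under 0.05 the counts were 2 and 14. In the full-length line 4 rose and 7 fell, with a median of -0.06. Over all features 7.09% rose and 6.15% fell in the truncated line, and 9.41% rose and 6.14% fell in the full-length line.

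WRKY45, known to act in phosphate uptake in Arabidopsis, rose most in the full-length line, 2.25-fold (1.17 ± 0.27, adjusted p = 0.00813). Its normalised signal there was 2391 and 2798, against 1218 and 1089 in wild type on the same arrays. WRKY49 rose 1.62-fold (0.70 ± 0.07), a call lost with outlier-marked spots kept (0.44, adjusted p = 0.155). WRKY22, which lies downstream of flagellin-activated kinases, fell 1.57-fold in the full-length line (-0.65 ± 0.05, adjusted p = 0.00913), and WRKY65 (-0.51 ± 0.12) and WRKY30 (-0.50 ± 0.13) fell too. The WRKY65 and WRKY30 calls were lost without full-length replicate 2 (adjusted p = 0.0505 and 0.0696), and WRKY30 was at -0.32 with outlier-marked spots kept (adjusted p = 0.238) and at -1.06 with the scanner software's log ratios (adjusted p = 0.0179).

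WRKY26 is a group I relative of WRKY25 and WRKY33 that acts with them in heat tolerance. It had -0.30 and -0.43 in the truncated line and 0.60 and 0.41 in the full-length line. It fell in the truncated line (-0.36 ± 0.09, adjusted p = 0.0407), rose in the full-length line (0.50 ± 0.13, adjusted p = 0.0166) and differed between the lines by -0.86 (SE 0.11, adjusted p = 0.0277). The difference had the opposite sign to that of WRKY33. The truncated call was lost without either truncated replicate (adjusted p = 0.0674 and 0.186) and the full-length call without full-length replicate 1 (adjusted p = 0.0653) or with outlier-marked spots kept (0.31, adjusted p = 0.0859). WRKY43 (-0.31 ± 0.11) and WRKY65 (-0.30 ± 0.04) were the other largest falls in the truncated line, and each was lost without either truncated replicate. WRKY43 was well above background in the truncated line on 1 of 2 arrays.

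**Figure D4:**
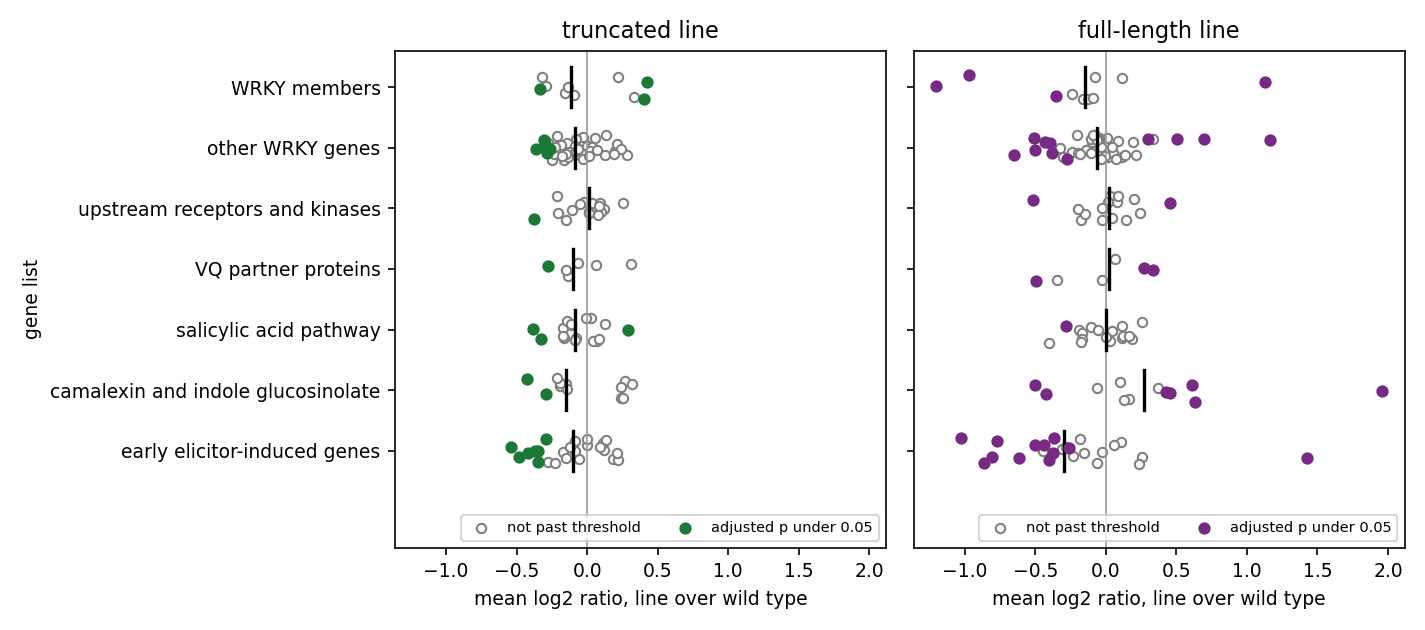
Mean log2 ratio of line over wild type for the genes of each list in the truncated line (left) and the full-length line (right). Points are genes, filled where the adjusted p was under 0.05, and black bars are list medians. Early elicitor-induced genes had a median of -0.10 in the truncated line and -0.29 in the full-length line. FRK1, which passed the filter on dim probes only through the full-length line, stands apart there at 1.43.

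Upstream of the WRKY factors, of 16 tested genes for pattern receptors and mitogen-activated protein kinases, 0 rose and 1 fell in the truncated line by limma (1 and 3 at an unadjusted p under 0.05), and 1 rose and 1 fell in the full-length line, where 13.2% and 15.5% of all features were called. MPK3, a kinase that acts on WRKY33, fell 1.43-fold in the full-length line (-0.51 ± 0.07, adjusted p = 0.0109). The coreceptor gene SERK4 rose in that line (0.45 ± 0.05). Its call was lost with outlier-marked spots kept (0.34, adjusted p = 0.0568) and without full-length replicate 1 (0.41). FLS2, the flagellin receptor gene, fell in the truncated line (-0.37 ± 0.12, adjusted p = 0.0282), though not without truncated replicate 1 (adjusted p = 0.193).

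VQ proteins are small partners that bind WRKY domains. Of 6 tested, 0 rose and 1 fell in the truncated line by limma (0 and 1 at an unadjusted p under 0.05), and 2 rose and 1 fell in the full-length line. The shares of all features called in these lines were 13.2% and 15.5%. SIB1, a partner of WRKY33, fell in the full-length line (-0.49 ± 0.07, adjusted p = 0.013), but not with outlier-marked spots kept (-0.31, adjusted p = 0.207). AT5G53830 fell in the truncated line (-0.28 ± 0.06) and rose in the full-length line (0.27 ± 0.02), and AT3G22160 rose in the full-length line (0.34 ± 0.07). The AT5G53830 and AT3G22160 calls were each lost without either replicate of the line concerned (adjusted p from 0.0707 to 0.308).

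Of 17 tested genes of the salicylic acid pathway, 1 rose and 2 fell in the truncated line, and 0 rose and 1 fell in the full-length line by limma (2 and 5 at an unadjusted p under 0.05). Among all features 13.2% were called in the truncated line and 15.5% in the full-length line. NIMIN-2, for a protein that binds the regulator NPR1, fell in the truncated line (-0.39 ± 0.04), as did PAD4 (-0.32 ± 0.06), for a lipase-like defence regulator. PR5, a pathogenesis-related gene, rose there (0.29 ± 0.02), and the salicylic acid receptor gene NPR3 fell in the full-length line (-0.28 ± 0.06). Each of these calls was lost without either replicate of its line (adjusted p from 0.0692 to 0.274).

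Camalexin and indole glucosinolate genes include PAD3, the known target of WRKY33. Of 12 tested, 0 rose and 2 fell in the truncated line by limma (3 and 4 at an unadjusted p under 0.05), and 5 rose and 2 fell in the full-length line. Among all features 13.2% were called in the truncated line and 15.5% in the full-length line. PAD3 had normalised signals of 125 and 118 in the truncated line and 356 and 385 in the full-length line, against 96.7, 105, 77.7 and 116 in wild type. It rose 3.89-fold in the full-length line (1.96 ± 0.33, adjusted p = 0.00318), on the same arrays on which WRKY33 was at -1.002 and -0.94. PAD3 was dim in wild type, where the offset of 50 draws ratios towards 0, so the fold depends on the processing. With outlier-marked spots kept PAD3 was at 1.07 (adjusted p = 0.0902), and with the scanner software's log ratios at 3.18 (adjusted p = 0.0202). CYP79B2, which converts tryptophan to the shared precursor, rose too (0.61 ± 0.08), as did CYP83B1 (0.64 ± 0.06), an enzyme of the glucosinolate branch. MYB51, a regulator of indole glucosinolate genes, fell in both lines (-0.29 ± 0.08 and -0.50 ± 0.02), CYP81F2 fell in the full-length line (-0.42 ± 0.21), and CYP79B3 fell in the truncated line (-0.43 ± 0.02). With outlier-marked spots kept the CYP81F2 call (-0.32, adjusted p = 0.202) and both MYB51 calls were lost. MYB51 was then at -0.29 in the truncated and in the full-length line (adjusted p = 0.118 and 0.179). The CYP81F2 call was also lost without full-length replicate 2 (-0.28) and the truncated MYB51 call without either truncated replicate (-0.34 and -0.24). That of CYP79B3 was lost without truncated replicate 1 (-0.41). Of the 12, 4 were called lower in the truncated than in the full-length line, as were 2.15% of all features. These were PAD3 (-1.69, SE 0.18, adjusted p = 0.0199), CYP79B2 (-0.81, SE 0.10, adjusted p = 0.0281), MYB34 (-0.60, SE 0.09, adjusted p = 0.0395) and CYP79B3 (-0.52, SE 0.08, adjusted p = 0.0453). With outlier-marked spots kept PAD3 differed by -0.80 (adjusted p = 0.382) and CYP79B3 by -0.51 (adjusted p = 0.0606). With the scanner software's log ratios the calls of PAD3, CYP79B2 and CYP79B3 were lost (adjusted p = 0.0851, 0.0653 and 0.0852). MYB34 was not followed over the alternatives.

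Genes that are known to be transcribed early after elicitors, as many of the WRKY genes are, went down more often than up. Of 24 tested, 0 rose and 7 fell in the truncated line by limma (1 and 8 at an unadjusted p under 0.05), and 1 rose and 11 fell in the full-length line. Over all features 7.09% rose and 6.15% fell in the truncated line, and 9.41% rose and 6.14% fell in the full-length line. ERF6, an ethylene response factor gene, had normalised signals of 850 and 896 in the truncated line and 576 and 639 in the full-length line, against 1291, 1243, 1225 and 1247 in wild type. It fell 1.45-fold in the truncated line (-0.54 ± 0.09, adjusted p = 0.0137) and 2.04-fold in the full-length line (-1.03 ± 0.09, adjusted p = 0.00338). SYP122, a syntaxin gene, and TCH3, a calmodulin-like gene, fell in both lines. Their means were -0.48 ± 0.10 and -0.42 ± 0.03 in the truncated line, and -0.44 ± 0.10 and -0.77 ± 0.01 in the full-length line. These full-length falls (adjusted p = 0.0191 and 0.00377) were not among the 3 largest of the list. The zinc finger gene SZF1 (-0.86 ± 0.02) and PHI-1 (-0.81 ± 0.27) fell in the full-length line, and neither was called in the truncated line.

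FRK1, a receptor kinase gene widely used as a marker of flagellin responses, was the 1 early gene that rose by limma. Its mean in the full-length line was 1.43 ± 0.14 (adjusted p = 0.003). It passed the filter on dim probes only through the full-length line, where it was high. The call is therefore not independent evidence. Its normalised signal in the full-length line was 267 and 255, against 92.6 and 101.4 in wild type on the same arrays. Wild type was well above background on 1 of these 2 arrays, so 1.43 is not an exact ratio. In the truncated line FRK1 was not well above background on either array, so no exact ratio is given for it. With outlier-marked spots kept FRK1 was at 0.79 in the full-length line (adjusted p = 0.119), and with the scanner software's log ratios at 3.04 (adjusted p = 0.0179). Over the 47 calls of list genes and of loci nearest WRKY40, median centring ended 47, no filter on dim probes 28 and keeping outlier-marked spots 21, with no change of sign. Of the 13 list genes named for the truncated line, ERF6 alone kept its call without truncated replicate 1, and 4 kept it without replicate 2. Of the 21 named for the full-length line, 16 and 15 kept theirs without full-length replicate 1 and 2.

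The loci whose ratios lay nearest to those of WRKY40 over the 4 arrays, by Euclidean distance among 20337 loci, were AT5G62280 (0.26), AT1G07135 (0.34), THI2.2 (0.37), AT5G12050 (0.39) and TCH4 (0.41). TCH4, a touch-induced wall enzyme gene, had -0.30 ± 0.09 in the truncated line and -0.93 ± 0.08 in the full-length line, and THI2.2, a thionin gene, had -0.40 ± 0.35 and -1.08 ± 0.31. No other WRKY gene was among these 5.

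Root markers included 4 called lower in the full-length line, TIP2;3, CASP1, CASP2 and CASP4. Of 9 tested, 0 rose and 0 fell in the truncated line by limma (median -0.07; 0 and 4 at an unadjusted p under 0.05). In the full-length line 0 rose and 4 fell, where 6.14% of all features fell (median -0.25; 0 and 6 at an unadjusted p under 0.05). Their summed normalised signal was 8117 and 8574 in the truncated line, against 9699 and 9398 in wild type, and 6605 and 7050 in the full-length line, against 9823 and 9381 in wild type. No leaf marker was called in either line, and the summed leaf signal was below wild type on replicate 1 and above it on replicate 2 in both lines. The floral gene PI rose in the truncated line (0.86 ± 0.02, adjusted p = 0.00342). The part of these markers in the WRKY ratios was not tested.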

How the data were processed

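The 4 arrays were Agilent 2-colour arrays of line against wild type RNA, 1 line and 1 wild type sample each. Per the file headers, the authors scanned and quantified them with Agilent Feature Extraction 10.7.3.1, which gave median intensity values of spot and local background in each channel. The deposited files also hold that software's log10 ratios, and a deposited table holds log2 ratios, which matched the scanner ratios turned to line over wild type (slopes 0.998 to 1.00 over 43603 probes).

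Outlier-marked spots were removed, background was corrected with normexp (offset 50), and arrays were loess-normalised with limma 3.58.1 in R 4.3.3. Ratios were turned for dye, spots of a probe averaged and the brightest probe of a gene used. The filter on dim probes asked for a signal well above background for line RNA on each array of at least 1 line, or for wild type RNA on all 4 arrays. Signals per channel were scaled between arrays by their mean intensity distribution. Both lines entered 1 limma fit with 2 residual degrees of freedom, and p-values were adjusted by Benjamini-Hochberg over all features. These p-values reflect array-to-array spread, in which dye is included. The script was tested on simulated data.

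The WRKY genes, the gene lists and the order of the steps were chosen with earlier results of these data known. Named are all 10 WRKY genes, up to 3 largest rises and 3 largest falls per list and line among called genes whose arrays had the same sign, and the 5 loci nearest WRKY40. MYB34 and the individual marker genes, PI and CASP2 among them, were named after their values were seen. The alternatives were kept outliers, median centring, scanner ratios, the deposited table, an offset of 16, no filter, averaged probes, a replicate block and leaving out each array.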

Additional observations from a re-analysis of the deposited data

Results flagged for a closer look

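WRKY40, WRKY33 and WRKY60 differed between the lines when the truncated line was set against the full-length line in the same limma fit. The differences in log2 ratio were 0.88 for WRKY40, 0.83 for WRKY33 and -0.72 for WRKY60, with the same sign on both arrays. These genes were listed with both ratios known, so the differences are not independent evidence.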

How the results depend on the processing

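Of 360 values of the 10 WRKY genes over 3 comparisons and 12 alternatives, 3 changed sign, all of WRKY25. With 1 array left out its full-length value ran from -0.24 to 0.051 (above 0 without full-length replicate 1), and its difference between the lines from -0.20 to 0.082 (above 0 without full-length replicate 2 and, at 0.03, without truncated replicate 1). The WRKY genes called (3 in the truncated line, 4 in the full-length line, 3 between the lines) and the other WRKY and pathway genes called (19, 36 and 9) changed as follows, with the cause not tested. Median centring gave 0, 0 and 0 WRKY genes and 0, 0 and 0 of the others, and 41 and 8 of all features in the truncated and full-length lines. No filter on dim probes gave 0, 3 and 0 WRKY genes and 0, 15 and 1 others. Keeping outlier-marked spots, of which the 10 WRKY genes had none, gave 2, 3 and 0, and 14, 15 and 4. Scanner ratios and the deposited table each gave 1, 5 and 1, and 13, 36 and 0. An offset of 16 gave 2, 5 and 1, and 13, 37 and 4. Averaged probes gave 5, 4 and 3, and 21, 42 and 10. Leaving out 1 array gave 0 to 6, 3 to 4 and 3 to 5 WRKY genes, and 2 to 19, 21 to 43 and 7 to 13 others. Without truncated replicate 1 the truncated line had 0 WRKY genes called, and where a line is left with 1 array, that array is assumed to vary like the others. The replicate number, which is also the dye orientation, gave 9, 7 and 6 WRKY genes and 72, 79 and 56 others as a block. Replicate differences of the lines correlated at 0.775 across genes, but the labels state no pairing. Slide as a block was not run, because all 4 arrays are on 1 slide.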
